A study of Mus musculus with 3 samples.

Results

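C1q-positive tissue macrophages are described here as they were captured from the inguinal fat of mice, a subcutaneous white depot beside the hind leg. A barcode was counted as a member when it held 500 genes or more and mitochondrial UMIs of no more than 15% (unique molecular identifiers, each standing for 1 captured transcript), at least 2 UMIs summed over C1qa, C1qb and C1qc, a UMI of at least 2 of the 4 genes Csf1r, Adgre1, Mrc1 and Cd68, and no UMI of Cd3e or Cd79a, which mark T and B cells. Of 8186 kept barcodes, 133 were members: 31 of 2728 in wild type, 31 of 1425 in Pdgfra-Cre and 71 of 4033 in Pdgfrb-Cre. Members were thus chosen by measured transcripts of these same cells, so the levels of its 9 genes describe how members were chosen and test nothing.

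Single-cell 3′ libraries were made from the stromal and vascular cells of the pad after dead cells and red blood cells had been removed. There were 3 libraries, each 1 sample: TERT +/+ (wild type, whose title also carries the unexplained abbreviation PBS), TERT fl/fl with Pdgfra-Cre, and TERT fl/fl with Pdgfrb-Cre. The floxed gene makes the reverse transcriptase of telomerase, the enzyme that extends chromosome ends, and Cre removes a floxed gene in cells that have used the promoter that drives it, here the promoter of 1 of the PDGF receptors of mesenchymal cells. The wild-type label names no Cre and no floxed allele, so what is driven by Cre alone has no control here, and strain, sex, age, number of animals and pooling are not in the labels. Library and genotype cannot be told apart, no test between groups was possible, and every difference given is between 1 library and another. Values of 3 libraries are listed in the order wild type, Pdgfra-Cre, Pdgfrb-Cre.

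The deleted gene was not detected in the members: Tert had 0 UMIs in 31, 31 and 71 cells, and 3 counts, the limit used throughout for a count of 0, would be 15.6, 20.6 and 3.30 CPM (counts scaled to 1000000 UMIs of the members of a library). In the other kept barcodes Tert stood at 1.17, 0.58 and 0.339 CPM, so these 3′ counts say nothing of whether the label holds in macrophages. The members held few transcripts of the receptors whose promoters drive Cre: Pdgfra had 1, 1 and 2 UMIs and Pdgfrb 0, 0 and 11, the latter in 3 members.

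Macrophages of fat clear dead adipocytes, take up lipid and iron, present antigen and secrete factors that act on vessels and progenitors. C1q is the recognition molecule that starts the classical complement pathway. Its A, B and C chains are made mostly by tissue macrophages, and it binds dying cells and immune complexes. Adipose macrophages are commonly divided into a resident, perivascular type marked by Lyve1, Folr2, Cd163 and Timd4, a monocyte-derived type that keeps Ccr2 and MHC class II, and a lipid-associated type marked by Trem2, Gpnmb and Fabp5 that is known from obese fat. Colony-stimulating factor 1, acting through its receptor Csf1r, keeps these cells alive.

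Promoter sequences of a rule gene and of genes that differ between the libraries are shown because they carry short elements known from textbooks for macrophage identity, antigen presentation, inflammation and amino acid stress. They come from RefSeq on GRCm38.p6 and are written 5′ to 3′ on the strand of the gene, ending at the base before its start or, where stated, 30 bases earlier. Capitals mark the searched motif. A match is a description of letters and no evidence of binding, since no binding was measured. For C1qb (chr4:136886201-136886450, minus strand) the capitals mark GAGGAA, the purine core that PU.1, the master regulator of macrophages, binds; it lies 30 to 25 bases before the start. Both class II genes, H2-Aa (chr17:34287824-34288073, minus strand) and H2-Eb1 (chr17:34305617-34305866, plus strand), hold CTGATTGG, the Y box of class II promoters, 51 to 44 and 62 to 55 bases before the start. Cxcl2 (chr5:90903649-90903868, plus strand) holds the 10 letters of an NF-kB site, 97 to 88 bases before the start. Slc7a11 (chr3:50443644-50443863, minus strand) holds TGATGCAAA, the amino acid response element bound by ATF4, at 66 to 58 and, read on the other strand, at 48 to 40 bases before the start. The last 30 bases before the start are not printed for Cxcl2 and Slc7a11.
C1qb: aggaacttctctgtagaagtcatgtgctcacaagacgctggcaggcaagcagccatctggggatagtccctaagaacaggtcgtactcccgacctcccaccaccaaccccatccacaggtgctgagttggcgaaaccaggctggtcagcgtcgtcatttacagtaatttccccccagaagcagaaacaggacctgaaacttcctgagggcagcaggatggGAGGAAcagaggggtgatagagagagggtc
H2-Aa: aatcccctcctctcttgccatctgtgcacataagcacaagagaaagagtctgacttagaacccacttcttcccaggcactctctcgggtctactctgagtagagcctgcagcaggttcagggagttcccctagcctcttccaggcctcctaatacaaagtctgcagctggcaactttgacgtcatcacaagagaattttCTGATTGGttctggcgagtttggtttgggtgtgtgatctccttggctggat
H2-Eb1: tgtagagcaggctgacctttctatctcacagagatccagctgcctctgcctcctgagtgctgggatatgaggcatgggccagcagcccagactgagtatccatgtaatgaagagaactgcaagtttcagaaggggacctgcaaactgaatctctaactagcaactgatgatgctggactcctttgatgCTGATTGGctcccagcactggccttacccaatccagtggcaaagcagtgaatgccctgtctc
Cxcl2: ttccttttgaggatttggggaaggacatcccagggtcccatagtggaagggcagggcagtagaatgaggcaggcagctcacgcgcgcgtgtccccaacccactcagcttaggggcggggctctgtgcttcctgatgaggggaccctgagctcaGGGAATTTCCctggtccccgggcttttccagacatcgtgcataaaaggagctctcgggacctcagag
Slc7a11: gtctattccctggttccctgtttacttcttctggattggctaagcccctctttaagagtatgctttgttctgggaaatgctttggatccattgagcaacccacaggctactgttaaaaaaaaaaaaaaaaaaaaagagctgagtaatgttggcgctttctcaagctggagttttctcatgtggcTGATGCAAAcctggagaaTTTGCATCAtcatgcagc

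Counting both strands of 250 bases before the start of 32851 mouse promoters, GAGGAA was present in 7639 (23.3%) and CTGATTGG in 1258 (3.83%). The NF-kB letters were present in 28 (0.0852%) and TGATGCAAA in 74 (0.225%). GAGGAA is thus too common to set C1qb apart, while the Cxcl2 and Slc7a11 elements are carried by few promoters. C1qa and H2-Ab1 are named only.

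Members differed in depth between the libraries, which bears on every share of cells with a UMI below. A wild-type member held 711, 2793 and 34245 UMIs (lowest, median, highest), a Pdgfra-Cre member 920, 1769 and 15022, and a Pdgfrb-Cre member 844, 9425 and 50311. Summed over members, the libraries gave 191847, 145311 and 908716 UMIs, of which the 2 deepest members held 32.1%, 20.1% and 10.6%. Across all kept barcodes the medians were 3304.5, 7554 and 5771 UMIs, so macrophages were shallow for their library in Pdgfra-Cre and deep for it in Pdgfrb-Cre. Scrublet, which scores barcodes that look like 2 cells, placed 0, 0 and 7 members among the highest scores. The libraries shared 1, 5 and 3 barcodes pairwise, none of them a member. No member held an Xist UMI and 18, 13 and 57 held a Y-linked UMI.

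In the Pdgfra-Cre library the members fell into 2 kinds by Malat1, a long non-coding RNA that stays in the nucleus. Malat1 stood at 76.7, 348 and 1854 UMIs per 10000 in wild-type members (lowest, median, highest), at 0, 27.2 and 1198 in Pdgfra-Cre and at 12.9, 187 and 1489 in Pdgfrb-Cre. Under 50 per 10000, a level chosen after seeing the data, lay 0 of 31 wild-type members, 17 of 31 Pdgfra-Cre members (54.8%, 95% Clopper-Pearson interval 36.0 to 72.7) and 4 of 71 Pdgfrb-Cre members (5.63%, 1.56 to 13.8). Such intervals cover counting error only, here and throughout. The 17 low-Malat1 members held a median of 1145 UMIs and 586 genes, and the other 14 Pdgfra-Cre members 9102.5 UMIs and 2539.5 genes. Low Malat1 was rarer among the other kept barcodes of that library, at 6.38%, and was found in 0 of 203 T cells, 0 of 27 B cells and 0 of 31 myeloid barcodes without C1q. The low-Malat1 barcodes among those other kept barcodes were also shallow, with a median of 1480 UMIs. The T cells, B cells and myeloid barcodes held at least 1421, 1496 and 2375 UMIs, with medians of 5741, 6006 and 8863. Their counts of 0 thus do not tell whether low Malat1 is particular to macrophages. For the genes named between libraries, values without these 17 cells are given below where they turn the direction or move the ratio by over 1.5 times.

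**Figure D1:**
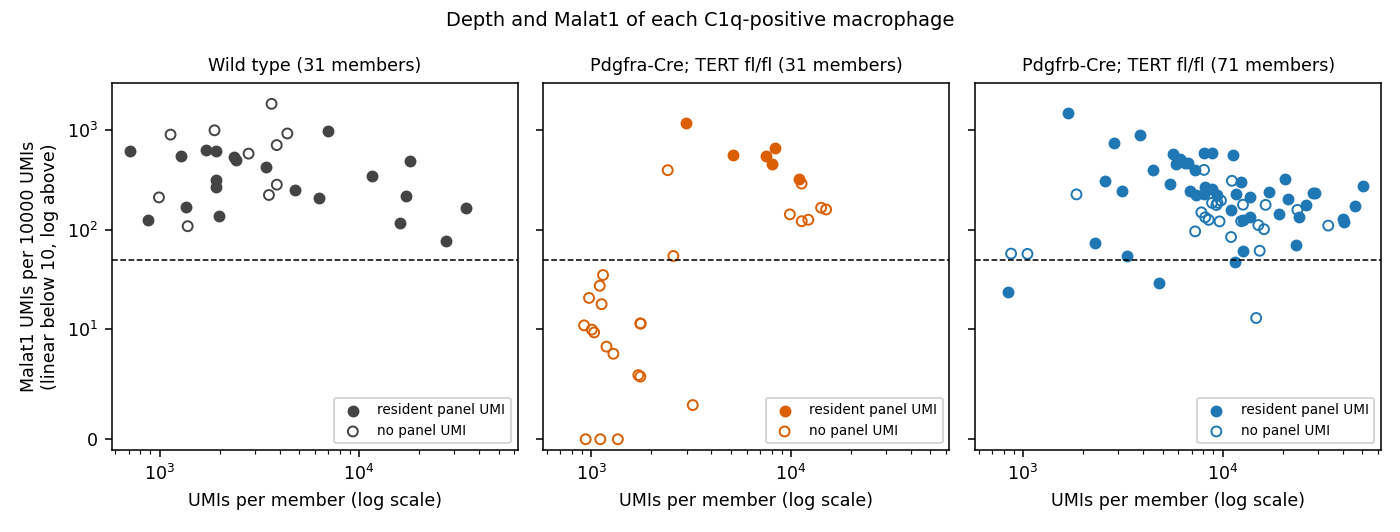
Malat1 UMIs per 10000 UMIs (vertical, linear below 10 and logarithmic above) against UMIs per member (horizontal, log scale), 1 panel per library and 1 point per member; filled points have a UMI of Lyve1, Folr2, Cd163 or Timd4, and the dashed line is 50 per 10000. The 17 Pdgfra-Cre members under the line hold 920 to 3224 UMIs and are all open points, while no wild-type member lies under it.

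The wild-type library leaned on 2 deep members in another way. These 2 cells, of 34245 and 27377 UMIs, had no UMI of Mrc1 (the mannose receptor), Adgre1 (F4/80), Folr2, Clec10a or Retnla, although Mrc1 was seen in 25 of the other 29. They met the rule through Csf1r and Cd68, and their C1qa level of 5388 CPM lay near the 4408 CPM of the others. Lyz2 (lysozyme) reached 57236 CPM in them against 11764 in the rest, Ctsd (cathepsin D) 6897 against 1497, and Fabp5 (a fatty acid carrier) 7871 against 476. Cd4 stood at 617 against 61.4 CPM and Dnase1l3, a secreted DNase, at 1039 against 46.1 CPM. Of all Fabp5 UMIs of wild-type members 88.7% came from them, and of Lyz2 UMIs 69.7%. The 2 deepest Pdgfra-Cre members, of 15022 and 14174 UMIs, had no UMI of C1qa, Mrc1, Lyve1, Folr2, Cd163 or Timd4. Both held UMIs of C1qb, Csf1r, Cd68, Ccr2 and S100a4. The summed Pdgfra-Cre levels lean on these cells, which held 20.1% of the UMIs of its members. Their cell type was not tested.

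Other lineages' transcripts were present in members of every library, most of all endothelial ones in Pdgfrb-Cre. A list of 10 endothelial markers summed to 756, 372 and 11879 CPM in members, against 8000, 4807 and 4227 CPM in the other kept barcodes, with 9, 6 and 10 of the 10 genes seen. In Pdgfrb-Cre 10 members held at least 5 UMIs over Pecam1, Cdh5, Cldn5, Egfl7 and Esam, against 1 in wild type and 0 in Pdgfra-Cre, and their median depth was 31494.5 UMIs against 8835 in the other 61. In these 10 cells C1qa stood at 868 CPM against 2013 in the other 61, and Fabp4, a lipid carrier of capillary endothelium as well as of macrophages, at 25736 against 201. Cd74 was 666 against 5453 CPM, and Ccr2 had 3 UMIs in 1 of them. Erythroid markers summed to 10.4, 234 and 2433 CPM, with 2177 UMIs in 1 Pdgfrb-Cre member. Stromal markers summed to 261, 351 and 330 CPM in members against 4653, 31229 and 10219 in other cells, and NK markers to 0, 0 and 11 CPM. At least 3 UMIs over all other lineages' markers were found in 22, 19 and 53 members. The part these cells have in the results below was tested only by leaving them out.

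Genes that the rule did not name also ranked high in the members of all 3 libraries. Genes were ranked by the smallest of the 3 ratios of members to other kept barcodes, with 1 CPM added to the latter. Beside the rule genes, the 25 leading genes held Fcgr1 and Fcgr3 (receptors for antibody), C3ar1 (a complement receptor) and Aif1 (IBA1). They also held Ms4a7, Clec10a and Clec4a1 to Clec4a2 (lectins), and the chemokines Pf4, Ccl6, Ccl8 and Ccl9. Fcgr1 was at 125, 241 and 108 CPM in members and at 3.27, 1.57 and 1.97 CPM elsewhere, C3ar1 at 240, 186 and 262 against 2.93, 1.66 and 2.14. Without that addition Ms4a7 was 130, 162 and 104 times its level in the other barcodes, and Pf4 98.5, 79.0 and 109 times. Choosing cells by C1q and 4 macrophage genes fixes much of this, and the genes were picked by such ratios of these same cells. The ratios are thus given as a description.

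Among the rule genes C1qb was seen in 28, 31 and 70 members, at 3352, 3310 and 1550 CPM, against 14.8, 9.61 and 5.32 CPM in other barcodes. C1qa stood at 4722, 2319 and 1608 CPM and C1qc at 2434, 2010 and 1045 CPM. Csf1r was at 610, 612 and 499 CPM, Mrc1 at 870, 791 and 724 CPM, Adgre1 at 240, 330 and 198 CPM and Cd68, a lysosomal protein, at 803, 475 and 374 CPM. Per member, C1qa reached 0, 52.2 and 99.8 per 10000 UMIs (lowest, median, highest) in wild type, 0, 17.2 and 97.8 in Pdgfra-Cre and 0, 19.4 and 82.9 in Pdgfrb-Cre, and the libraries overlapped. Free RNA set a low floor: at least 2 C1q UMIs were found in 3 of 592, 0 of 27 and 2 of 722 B cells and in 4 of 421, 1 of 203 and 2 of 1131 T cells, the median B cell holding 3812, 6006 and 3558 UMIs.

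Few cells stood close to the rule's limits on C1q. Exactly 2 C1q UMIs were held by 2, 0 and 2 members, and 2, 4 and 1 further barcodes met everything else with 1 C1q UMI. At least 10 were held by 22, 17 and 62 members. The limit on genes mattered more: 5, 9 and 3 members lay less than 100 genes above it, and 6, 23 and 0 further barcodes would have met the rule but for having fewer than 500. Exactly 2 of the 4 macrophage genes were seen in 13, 13 and 4 members, and 6, 19 and 4 barcodes had 1 of them. For a Cd3e or Cd79a UMI alone 8, 1 and 7 barcodes were left out, and for over 15% mitochondrial UMIs 0, 2 and 2.

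Members made up 1.14% of kept barcodes in wild type (0.773 to 1.61), 2.18% in Pdgfra-Cre (1.48 to 3.07) and 1.76% in Pdgfrb-Cre (1.38 to 2.22). The shares changed with the depth and with the low-Malat1 cells. When every barcode of at least 2000 UMIs was thinned to 2000 before the rule was applied, the shares were 0.81%, 0.994% and 1.18%, from a mean of 14.7, 12.2 and 45.6 members over 100 draws. At 1000 UMIs they were 0.717%, 1.22% and 0.8%, so the order of Pdgfra-Cre and Pdgfrb-Cre turned with the depth chosen. Without low-Malat1 members the Pdgfra-Cre share was 0.983%. Among barcodes without lymphoid transcripts the shares were 2.98%, 3.05% and 5.88%. Dead cells were removed before loading, whose part in these shares was not tested, and fewer macrophages cannot be told apart from more of the other cells.

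Among themselves the members were divided by 4 genes of resident perivascular macrophages, chosen after seeing the data and not compared with other divisions. These were Lyve1 (a hyaluronan receptor), Folr2 (a folate receptor), Cd163 (the haemoglobin scavenger receptor) and Timd4 (a receptor for phosphatidylserine on dying cells). A UMI of any of the 4 was found in 21 of 31 wild-type members (67.7%, 48.6 to 83.3), 6 of 31 Pdgfra-Cre members (19.4%, 7.45 to 37.5) and 47 of 71 Pdgfrb-Cre members (66.2%, 54.0 to 77.0). The 2 deepest wild-type members are among the 21 through Timd4 alone. At least 2 UMIs over the 4 genes were held by a share of 45.2%, 19.4% and 62.0%. Without the low-Malat1 cells, none of which had such a UMI in Pdgfra-Cre, the share there was 6 of 14 (42.9%, 17.7 to 71.1). At 1000 UMIs per cell, which leaves 28, 28 and 69 members, it was 46.6%, 15.3% and 50.3%. At 2000 UMIs it was 54.7%, 32.7% and 58.9% of 18, 15 and 66 members, and the 16 Pdgfra-Cre members too shallow for that depth are left out. B and T cells seldom had them: Folr2 was seen in 3 of 592 wild-type and 2 of 722 Pdgfrb-Cre B cells.

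The members of each library were split by these 4 genes, and genes past 2-fold in all 3 libraries were kept, so that their agreement follows from the choice. Of 757 genes compared, 10 were at least 2-fold higher with a panel UMI in every library (1.32%) and 3 at least 2-fold lower (0.396%), where the call also adds 10 CPM on both sides. Folr2 and Lyve1 are themselves panel genes and C1qc is a rule gene. The other 8 were Clec10a, Cbr2, Fcna, F13a1, Cd81, C1qc, Retnla and Selenop. Clec10a (a lectin for galactose sugars) stood at 931 against 146 CPM in wild type, 792 against 58.6 in Pdgfra-Cre and 525 against 40.3 in Pdgfrb-Cre. Fcna (ficolin A, a starter of the lectin complement pathway) stood at 170 against 36.4, 466 against 19.5 and 511 against 7.32 CPM, and Cbr2 (a carbonyl reductase) at 225 against 36.4, 443 against 29.3 and 282 against 3.66. F13a1, the A chain of coagulation factor XIII, was 438 against 146, 1351 against 166 and 1167 against 146 CPM. The lower genes were Cd44 (a hyaluronan receptor of recruited leukocytes), Cd52 and Bcl2a1b (an anti-apoptotic factor); Cd52 stood at 207 against 1092, 443 against 1846 and 258 against 1377 CPM. The panel was chosen in these cells, so the companions are a description.

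**Figure D2:**
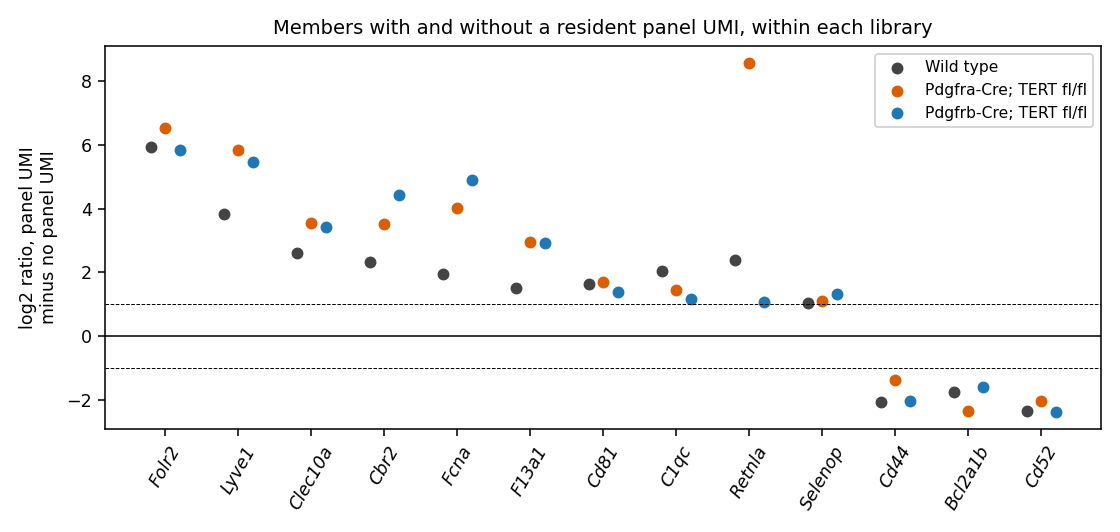
Log2 ratio of CPM, with 10 CPM added, between members with and without a UMI of the resident panel (vertical), for the 13 genes at least 2-fold apart in the same direction in all 3 libraries (horizontal); points are libraries and dashed lines mark 2-fold. Clec10a lies at 2.6, 3.55 and 3.41 and Cd52 at -2.35, -2.04 and -2.37.

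Ccr2, the receptor that brings monocytes out of the blood, was seen in 5, 10 and 28 members. A Ccr2 UMI and a panel UMI occurred together in 3, 2 and 10 members, and neither in 8, 17 and 6; the 17 in Pdgfra-Cre are as many as its low-Malat1 members, which held neither. Class II was present in both kinds: an H2-Aa UMI was found in 4 of 5, 10 of 10 and 26 of 28 Ccr2-positive members and in 13 of 21, 5 of 6 and 38 of 47 panel-positive members. By level, the H2-Aa of panel-negative members was 6111 CPM against 1259 with the panel in Pdgfrb-Cre, but 1857 against 2263 in wild type and 6046 against 8735 in Pdgfra-Cre, so the split by class II was not shared. Retnla (RELM alpha, a secreted marker of alternatively activated macrophages) came from few cells: 8, 5 and 39 members had it, with medians of 0, 0 and 25.2 and highest values of 546, 282 and 711 per 10000. In Pdgfra-Cre 73.2% of its UMIs lay in 1 cell.

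**Figure D3:**
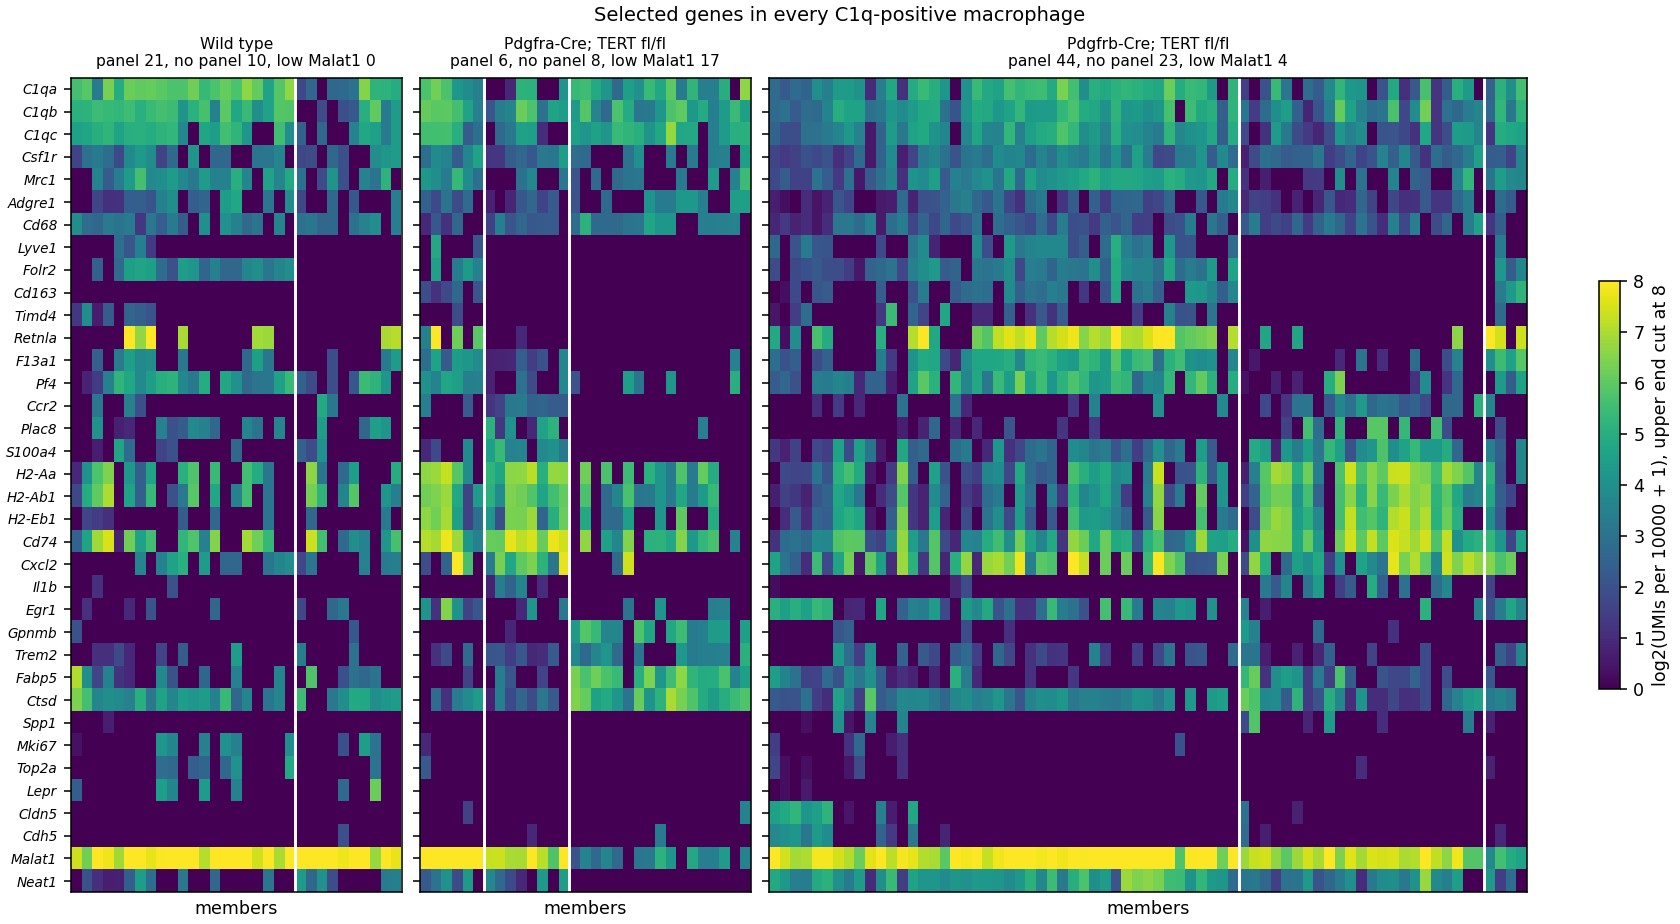
Level of 36 selected genes (rows) in every member (columns), as log2 of UMIs per 10000 plus 1, by library; white lines separate members with a resident panel UMI, members without one and members with low Malat1, each sorted from deepest (left) to shallowest. The 17 low-Malat1 Pdgfra-Cre members show Gpnmb, Fabp5 and Ctsd and no Lyve1, Folr2, Ccr2 or Neat1, and the deepest Pdgfrb-Cre members show Cldn5 and Cdh5.

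The 17 low-Malat1 members of Pdgfra-Cre carried lipid-associated and lysosomal transcripts. Gpnmb, a lysosomal glycoprotein of lipid-laden macrophages, was seen in 14 of 17 at 2263 CPM and in 1 of the other 14 at 8.20 CPM. Fabp5 stood at 4867 against 164 CPM, Ctsd at 4867 against 509, Lgals3 (galectin 3) at 9819 against 1542 and Cd63 (a lysosomal membrane protein) at 1793 against 164. Atp6v0d2, a subunit of the proton pump of lysosomes, had 17 UMIs in 8 of them and 0 UMIs in the others. Trem2, the lipid receptor of these cells, was seen in 12 of 17 and in 10 of 14, at 897 against 205 CPM. Apoe stood at 22114 against 10444 CPM. C1qa stood at 2946 against 2199 CPM, but the rule asks for at least 2 C1q UMIs. That minimum is a larger share of a shallow cell, so the C1qa levels of the 17 and the 14 test nothing. Some transcripts were not seen in them: Retnla, S100a4, Neat1, Ccr2, Mgl2, Klf2 and Plbd1 had 0 UMIs in the 17, against 321, 147, 89, 50, 49, 51 and 46 UMIs in the other 14. The 17 held 23424 UMIs in all and the 14 held 121887, so fewer would be counted in the 17 at equal levels. Retnla was seen in 5 of the 14. Cd14 (the coreceptor for lipopolysaccharide) was at 85.4 against 1436 CPM and H2-Eb1 at 939 against 5481. Neat1, like Malat1, is a nuclear RNA.

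Gpnmb-positive members were fewer in the other libraries. There were 2 in wild type, of 2793 and 34245 UMIs, and 8 in Pdgfrb-Cre, the latter with a median of 18041 UMIs and none low in Malat1. In these 8 Spp1 (osteopontin) was at 1228 against 92.2 CPM in the other 63, Lpl (lipoprotein lipase) at 3785 against 690, Trem2 at 788 against 133, Lgals3 at 6241 against 1190 and Fabp5 at 2450 against 646. Ctsk, cathepsin K, was at 507 against 22.4 CPM, and Ccl8 lower, at 113 against 1407. Spp1 was seen in 12 of 71 Pdgfrb-Cre members, with 52.0% of its UMIs in 1 of them, in 1 of 31 wild-type members and in 0 of 31 in Pdgfra-Cre. A few of the 8 carried much of this: Lgals3 was seen in 8, Trem2, Lpl and Fabp5 in 7, Spp1 in 4 and Ctsk in 2, and 2 of them held 35.0% of all Fabp5 UMIs of Pdgfrb-Cre members.

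Members with mitotic transcripts were found in all 3 libraries. Their shares differed by count, the intervals of wild type and Pdgfra-Cre meeting only at their ends, and the difference was not tested. At least 2 UMIs over 16 mitotic and S-phase genes were held by 10 of 31 wild-type members (32.3%, 16.7 to 51.4), 1 of 31 Pdgfra-Cre members (3.23%, 0.0816 to 16.7) and 12 of 71 Pdgfrb-Cre members (16.9%, 9.05 to 27.7). Depth ran the other way, since those cells had medians of 1915.5 UMIs in wild type and 18042 in Pdgfrb-Cre. At 1000 UMIs per cell Mki67, the proliferation antigen, was seen in 21.9%, 0.107% and 1.74% of members, and at 2000 UMIs, which leaves 18, 15 and 66 members, in 14.1%, 1.33% and 3.33%. The 10 wild-type cells had C1qa at 5275 CPM, against 4511 in the other 21, but H2-Aa in 1 of 10, against 17 of 21, and Cd74 at 377 against 6421 CPM. Lepr, the leptin receptor, stood at 848 CPM in 6 of the 10 and at 14.4 CPM in 1 of the 21. The deepest of the 10, with 34245 UMIs, was 1 of the 2 deep members described above and the only 1 with an H2-Aa UMI. The C1qa, Cd74 and Lepr levels of the 10 are summed over cells and so lean on this member. Levels without it are not given. Retnla, Ccr2, F13a1 and Neat1 had 0 UMIs in the 10, against 918, 43, 76 and 60 in the 21. In Pdgfrb-Cre 10 of the 12 had an H2-Aa UMI, against 51 of the other 59. Those 12 were deep, so a UMI in them does not tell their level of class II.

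Between libraries, 281 of 2468 genes (11.4%) were at least 2-fold higher in Pdgfra-Cre members than in wild type and 272 (11.0%) at least 2-fold lower, among genes of at least 50 CPM in either library and 20 UMIs over both, with 10 CPM added. In Pdgfrb-Cre 711 of 3781 (18.8%) were higher and 317 (8.38%) lower. Those whose counting interval also excluded equality were 250 (10.1%) higher and 231 (9.36%) lower in Pdgfra-Cre and 696 (18.4%) higher and 317 (8.38%) lower in Pdgfrb-Cre. The share of such genes that were higher was 50.8% and 69.2%, and became 45.4% and 55% when every member was given equal weight. These are the shares against which each group below is read. Without members holding 5 or more endothelial UMIs, 554 of 3498 genes were higher and 326 lower in Pdgfrb-Cre. Leaving out the highest doublet scores gave 549 of 3586 higher and 304 lower there. Both comparisons use the same wild-type cells, so a gene low or high in those cells moves in both. Cells of 1 library share their animals and handling and are not replicates, and the intervals of ratios cover the counting of UMIs alone.

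Chemokines and sensors of acute inflammation were higher in both Cre libraries. Cxcl2, which attracts neutrophils and whose promoter holds the NF-kB letters shown above, was at 240, 5320 and 4145 CPM, 22.2-fold higher in Pdgfra-Cre (16.5 to 30.6) and 17.3-fold in Pdgfrb-Cre (12.9 to 23.7). It was seen in 15, 14 and 63 members, with medians of 0, 0 and 31.7 and highest values of 33.1, 397 and 369 per 10000. The libraries overlapped cell by cell, and in Pdgfra-Cre 38.7% of its UMIs lay in 1 cell, while the highest cell of Pdgfrb-Cre held 7.09%. Il1b (interleukin 1 beta) was at 15.6, 234 and 154 CPM, from 2, 5 and 16 members, and Nlrp3, the inflammasome sensor that licenses it, at 5.21, 117 and 99.0 CPM. Nfkbia, the inhibitor that NF-kB itself induces, was at 448, 1266 and 1500 CPM. Clec4e (Mincle, a receptor for dead cells and glycolipids) had 0 wild-type UMIs and stood at 75.7 and 196 CPM, at least 4.84-fold and 12.5-fold higher against 3 counts. Its partner Clec4d was at 10.4, 248 and 72.6 CPM, and at 107 CPM in Pdgfra-Cre without low-Malat1 members. Cd14 was at 193, 1218 and 775 CPM. Of the 28 genes of the inflammatory list 16 could be compared in Pdgfra-Cre, 8 higher and 1 lower past 2-fold with a median log2 ratio of 1.09, and 21 in Pdgfrb-Cre, 12 higher and 1 lower with a median of 1.72. Over all genes the medians were 0.08 and 0.12. With every member weighted equally the Pdgfra-Cre median was -0.10 and the Pdgfrb-Cre median 1.43, while without the 2 deepest members of each library they were 0.90 and 1.58. Cxcl9, an interferon gamma target of the same list, was at 109, 0 and 114 CPM, from 2, 0 and 11 members, and at 13.6 CPM in Pdgfrb-Cre without the endothelial-positive members. Without the 2 deepest members of each library the Pdgfra-Cre log2 ratios of Il1b and Cd14 went from 3.25 to 2.46 and from 2.6 to 1.75.

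Monocyte genes were also higher by count. S100a4, a calcium-binding protein of motile cells, was at 313, 1012 and 899 CPM, and without the 2 deepest members of each library its Pdgfra-Cre log2 ratio of 1.66 became 0.04. Of the monocyte list, 8 of 11 and 5 of 9 compared were higher and 0 lower, with medians of 1.39 and 1.17, or 0.04 and 0.86 without those members. Thbs1 (thrombospondin 1), which is on none of the lists, had 0 wild-type UMIs and stood at 138 and 265 CPM, at least 8.80-fold and 17.0-fold higher. Ccr1 was at 36.5, 165 and 250 CPM, Ccr2 at 224, 344 and 187, and Cx3cr1, the fractalkine receptor, at 109, 41.3 and 11.0 CPM. The chemokine receptors thus did not move as 1 group.

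Immediate early genes, which respond quickly to stimulation and to tissue dissociation, leaned the same way. Egr1 was at 67.8, 915 and 1238 CPM, a log2 ratio of 3.57 and 4.0, with medians of 0, 0 and 2.72 and highest values of 8.49, 89.3 and 47.8 per 10000, and 54.1% of the Pdgfra-Cre UMIs in 1 cell. Klf4 was at 281, 757 and 1358 CPM, seen in 16, 12 and 70 members. Of the list 9 of 19 and 11 of 23 compared genes were higher and 0 lower, with medians of 0.67 and 0.91. The sign of these medians was not stable: with every member weighted equally they were -0.44 and 0.61, and without members holding 3 or more UMIs of other lineages, which leaves 9, 12 and 18 cells, -1.44 and -0.13. Without the endothelial-positive members the Pdgfrb-Cre log2 ratio of Egr1 was 3.17.

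Antioxidant and p53 target genes were higher in both Cre libraries by the counts of their lists. Slc7a11, the cystine transporter whose promoter holds the amino acid response letters on both strands, had 0 UMIs in wild type and stood at 206 and 166 CPM, at least 13.2-fold and 10.6-fold higher against 3 counts. It was seen in 0, 5 and 30 members. Srxn1 (sulfiredoxin) was at 10.4, 103 and 95.7 CPM, Txnrd1 (thioredoxin reductase) at 88.6, 227 and 313 CPM, and Sqstm1 (p62, an autophagy receptor) at 136, 365 and 482 CPM. Hmox1, which breaks down haem, was at 240, 427 and 1802 CPM, with highest cells of 8.44, 45.5 and 167 per 10000. Its log2 ratio of 0.81 in Pdgfra-Cre missed 2-fold and that in Pdgfrb-Cre was 2.86. Of the oxidative stress list 8 of 13 were higher and 1 lower in Pdgfra-Cre and 11 of 17 higher and 0 lower in Pdgfrb-Cre, with medians of 1.27 and 1.44. With equal weights these were 1.90 and 1.96, and without the 2 deepest members 1.16 (for Slc7a11, 94.7 CPM in Pdgfra-Cre) and 1.51. Cdkn1a (p21, which halts the cell cycle) was at 78.2, 427 and 596 CPM and was seen in 9, 19 and 65 members. Mdm2, the negative regulator of p53, was at 20.9, 89.5 and 226 CPM, and Gdf15, a stress hormone, at 73.0, 165 and 484 CPM, with 83.3% of the Pdgfra-Cre UMIs in 1 cell. Of the p53 list 3 of 6 and 5 of 8 compared genes were higher and 0 lower, medians 0.87 and 1.92. With equal weights the Pdgfra-Cre median was -0.19, and without endothelial-positive members the Pdgfrb-Cre median was 0.96. Without the 2 deepest members of each library the log2 ratios of Gdf15 went from 1.08 to 3.04 and from 2.57 to 4.41, and those of Txnrd1 from 1.27 to 2.29 and from 1.71 to 3.01.

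Class I antigen presentation and interferon-stimulated genes lay lower in both. H2-K1, a heavy chain of class I, was at 3779, 860 and 1388 CPM, 4.39-fold lower in Pdgfra-Cre (3.63 to 5.35) and 2.72-fold lower in Pdgfrb-Cre (2.48 to 2.99). Per cell it stood at 5.04, 31.8 and 57.7 per 10000 in wild type (lowest, median, highest), at 0, 5.65 and 19.9 in Pdgfra-Cre and at 0, 10.8 and 42.0 in Pdgfrb-Cre, with the wild-type median above the highest Pdgfra-Cre cell. B2m, the light chain shared by all class I molecules, was at 4874, 1796 and 2326 CPM with medians of 43.0, 12.8 and 21.2 per 10000, and H2-D1 at 7751, 3468 and 2860 CPM. Of the class I list 0 of 13 were higher and 4 and 7 of 13 lower, medians -0.50 and -1.06. Irf7, a transcription factor induced by interferon, was at 271, 61.9 and 105 CPM, Rtp4 at 162, 20.6 and 49.5, and Ifi27l2a at 2424, 1018 and 515 CPM. Ifi44 had 16, 1 and 8 UMIs. Of the interferon list 8 of 16 and 12 of 23 were lower and 1 higher in each, medians -0.96 and -1.06. With equal weights they were -1.70 and -1.41. The higher gene was Rsad2 (viperin, an antiviral enzyme) in both, at 57.3, 213 and 395 CPM, seen in 5, 4 and 34 members.

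Class II genes did not move as a group in both libraries, and 1 of them differed from its neighbours. H2-Eb1, the beta chain of I-E, was at 88.6, 4748 and 2254 CPM, 53.6-fold higher in Pdgfra-Cre (33.2 to 92.5) and 25.4-fold in Pdgfrb-Cre (15.8 to 43.7). It was seen in 8, 21 and 54 members, and its highest cells stood at 8.81, 124 and 163 per 10000. H2-Aa, whose promoter holds the same Y box, was at 2205, 6840 and 2717 CPM, H2-Ab1 at 3070, 4673 and 1885, and Cd74, the invariant chain that escorts them, at 4749, 10935 and 3759 CPM. Of 6 class II genes compared 4 were higher past 2-fold in Pdgfra-Cre (median 1.39), while in Pdgfrb-Cre only H2-Eb1 was (median -0.02). None was lower. In the 9, 12 and 18 members with fewer than 3 UMIs of other lineages the medians were 4.98, over 5 genes, and 4.90, over 6. The same step of H2-Eb1 was present in B cells, at 195, 2190 and 3412 CPM, where H2-Aa was 3531, 3207 and 4756 and Cd74 9335, 8603 and 8729 CPM. The low wild-type value is thus not limited to macrophages. Reads of Gm20513, annotated on the opposite strand at this promoter, cannot be told from those of H2-Eb1 unless strand was used.

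A few other genes that stepped between libraries also stepped in cells that are not macrophages. Requiring at least 2-fold in members (with 10 CPM added) and at least 4-fold in the same direction in other kept barcodes, B cells and T cells (with 1 CPM added), in both Cre libraries, left 1 higher gene, Eif3j1, and 5 lower, Gm8797, Il4i1, Gdpd3, AC160336.1 and Hspa1b, of 310 genes past 2-fold in both among 1947 with at least 100 CPM in the members of a library. Eif3j1 was at 26.1, 131 and 109 CPM in members and 14.1, 129 and 79.9 CPM in B cells. Gdpd3 was at 261, 20.6 and 5.50 CPM in members and 309, 0 and 0.338 in T cells, and AC160336.1 at 1772, 282 and 180 CPM in members. Hspa1b, an inducible heat shock protein, was at 1303, 344 and 482 CPM in members and 1242, 41.6 and 82.6 in B cells. Of Ifi202b, an interferon-inducible DNA sensor, members held 24, 0 and 0 UMIs and other barcodes 23.3, 0.166 and 0.102 CPM, and it did not meet the 4-fold rule in all those cells. H2-Eb1 did not meet that rule either, with 59.8, 211 and 833 CPM in the other kept barcodes. That the 6 genes stepped in B and T cells too follows from how they were chosen.

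Resident macrophage genes differed more in Pdgfra-Cre than in Pdgfrb-Cre by count. Of 25 compared 3 were higher and 9 lower in Pdgfra-Cre, median -0.70 (-0.62 without low-Malat1 members), and 5 higher and 1 lower in Pdgfrb-Cre, median 0.09 (-0.21 without the 2 deepest members); the difference between the libraries was not tested. Folr2 was at 516, 268 and 392 CPM and was seen in 18, 4 and 44 members. Timd4 was at 334, 13.8 and 212 CPM from 7, 1 and 21 members; 62.5% of its wild-type UMIs lay in 1 of the 2 deep cells, and without the 2 deepest members of each library its log2 ratio was -2.52 and 0.65, against -3.85 and -0.63. Cd163 had 0 UMIs in 31 wild-type members, against 75.7 and 216 CPM from 5 and 31 members, at least 4.84-fold and 13.8-fold higher, and was at 0 in wild type at 2000 UMIs per cell too, against 16.7% and 32.1% of members (5.25% and 22.5% at 1000 UMIs). Lyve1 was at 115, 165 and 300 CPM from 4, 2 and 29 members, 95.8% of the Pdgfra-Cre UMIs lying in 1. Cd209d, a lectin of the DC-SIGN family, was at 235, 0 and 237 CPM, at least 11.4-fold lower in Pdgfra-Cre, and 71.1% of its wild-type UMIs lay in 1 cell. Pf4 (platelet factor 4) was at 1089, 661 and 1157 CPM, and F13a1 at 396, 516 and 861. The 4 panel genes thus did not move together: Cd163 was lowest in wild type and Timd4 in Pdgfra-Cre.

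Maf, a transcription factor of macrophage identity, was lower in both Cre libraries. It was at 1392, 530 and 308 CPM, seen in 29, 18 and 49 members with medians of 17.6, 1.64 and 1.65 per 10000. It was 2.63-fold lower in Pdgfra-Cre (2.03 to 3.43) and 4.52-fold lower in Pdgfrb-Cre (3.81 to 5.36), and leaving out low-Malat1 members, endothelial-positive members or the 2 deepest left its log2 ratio at -1.28 to -2.44. Sirpa, the receptor for the don't-eat-me signal CD47, was at 719, 303 and 326 CPM.

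Lipid and lysosome genes changed when the subsets described above were left out. Fabp4 was at 485, 289 and 9234 CPM, and without the 10 endothelial-positive Pdgfrb-Cre members its log2 ratio of 4.22 became -0.49. Fabp5 was at 2851, 922 and 943 CPM, with log2 ratios of -1.62 and -1.59. Without the 2 deepest members of each library these were 1.11 and 0.84, and 81.4% of the wild-type UMIs lay in 1 cell. Without low-Malat1 members the Pdgfra-Cre level was 164 CPM and the log2 ratio -4.04. Gpnmb was at 57.3, 372 and 134 CPM, and its Pdgfra-Cre log2 ratio of 2.50 became -1.89 without low-Malat1 members and 4.75 without the 2 deepest. Lyz2 was at 26370, 12133 and 5274 CPM and Apoe, the lipid carrier, at 25515, 12325 and 5988. Per cell the Lyz2 medians were 53.8, 90.7 and 45.8 per 10000, and without the 2 deepest members the Pdgfra-Cre log2 ratio went from -1.12 to 0.11. Lgals3, at 870, 2877 and 2023 CPM, and Cd36, a receptor for fatty acids and oxidised lipoproteins, at 318, 895 and 1865 CPM, had Pdgfra-Cre log2 ratios of 1.71 and 1.46. These were 0.82 for Lgals3 without low-Malat1 members and 0.42 for Cd36 without the 2 deepest. In Pdgfrb-Cre they were 1.21 and 2.52, and 1.81 for Cd36 without the endothelial-positive members. Of the lipid-associated list 8 of 23 were higher and 6 lower in Pdgfra-Cre (median -0.62) and 12 of 25 higher and 4 lower in Pdgfrb-Cre (median 0.96). With equal weights the medians were 0.58 and 0.34, and without members holding 3 or more UMIs of other lineages 0.73 and -0.97. Of the lysosome list 0 of 25 and 1 of 26 were higher and 7 and 5 lower, medians -0.73 and -0.73, which were -0.40 and -0.38 without the 2 deepest members.

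**Figure D4:**
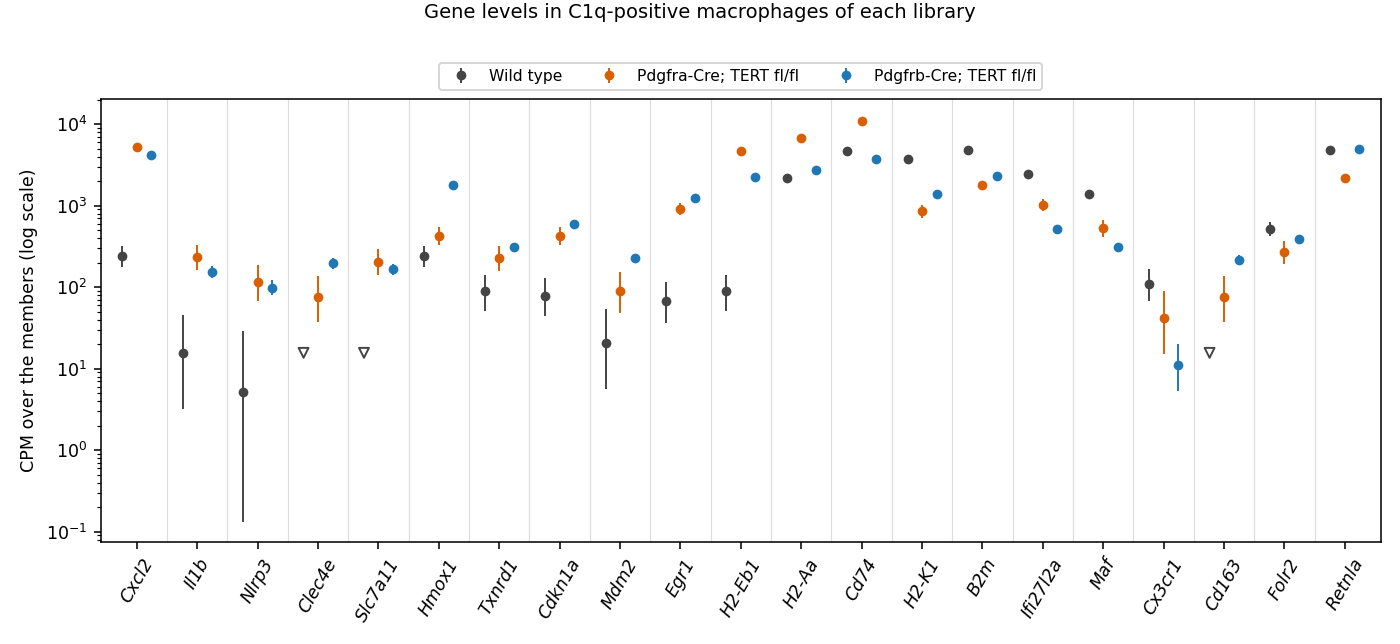
Level of 21 genes over the members of each library, as CPM on a log scale (vertical), with exact 95% Poisson intervals that cover counting error only; open triangles mark a library with 0 UMIs, drawn at 3 counts. Cxcl2 stands at 240, 5320 and 4145 CPM and H2-K1 at 3779, 860 and 1388.

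Some genes were near absent from the members of 1 or 2 libraries. Hal, histidine ammonia lyase, was at 433, 6.88 and 0 CPM, from 12, 1 and 0 members, the 1 Pdgfra-Cre member being low in Malat1, at least 131-fold lower in Pdgfrb-Cre. Pla2g2d, a secreted phospholipase of lymphoid tissue macrophages and dendritic cells, was at 844, 13.8 and 106 CPM, with 44.4% of the wild-type UMIs in 1 cell. Its log2 ratios of -5.17 and -2.89 became -3.61 and -1.38 without the 2 deepest members. Lepr was at 245, 0 and 3.30 CPM and Tspan10 at 188, 0 and 0 CPM, from 3 wild-type cells. Terf2ip, the shelterin subunit RAP1, had all of its 30 wild-type UMIs in 1 cell, against 0 and 8 UMIs, so its log2 ratios of -4.06 and -3.15 describe that cell. Marco, a scavenger receptor of marginal zone and cavity macrophages, was at 26.1, 0 and 285 CPM from 1, 0 and 3 members, 43.2% of the Pdgfrb-Cre UMIs in 1. Cldn5, the endothelial claudin, had 0, 2 and 718 UMIs. Each of these steps thus came from 12 or fewer cells of the higher library.

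**Figure D5:**
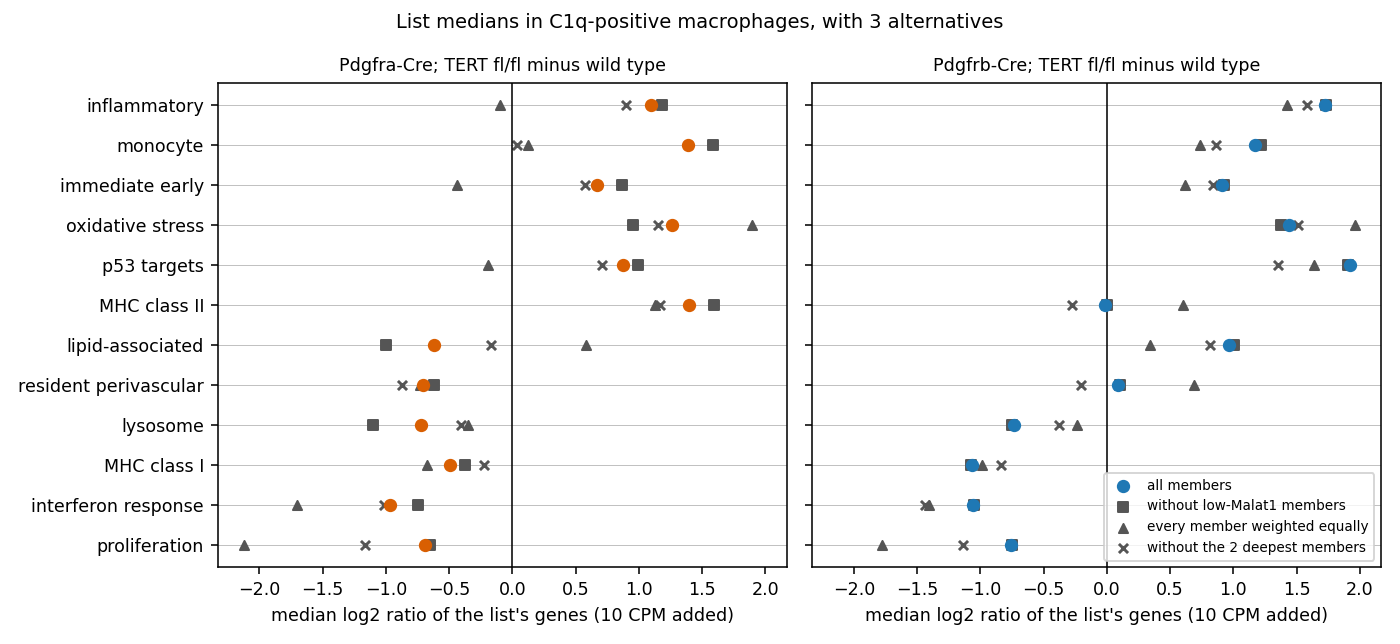
Median log2 ratio (10 CPM added) of the compared genes of 12 lists in members of Pdgfra-Cre (left) and Pdgfrb-Cre (right) against wild type (horizontal), for all members and for 3 alternatives. The inflammatory median of Pdgfra-Cre is 1.09 over all members and -0.10 with every member weighted equally, while that of interferon response lies between -1.70 and -0.75 in the settings drawn.

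Beside the members stood 20, 31 and 61 kept barcodes with Csf1r and at least 2 Lyz2 UMIs and no C1q UMI. Members were higher than these in Ccl8 (1918, 709 and 1194 CPM against 9.58, 0 and 6.38), Selenop (3539, 1604 and 2830 against 211, 182 and 225), Maf (1392, 530 and 308 against 95.8, 53 and 19.1) and Folr2, which had no CPM there beyond 9.57. They were lower in the granulocyte and monocyte genes S100a9 (5.21, 0 and 0 CPM, against 3879, 630 and 265) and Hp (0, 27.5 and 20.9 against 335, 789 and 419), and in Il1b (15.6, 234 and 154 against 345, 1644 and 852). Cxcl2 was at 9.58, 2979 and 4735 CPM in the C1q-negative barcodes and B2m at 4100, 2293 and 2151. The steps of Cxcl2 and B2m from wild type to the Cre libraries were thus also seen in myeloid barcodes that the rule left out.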

How the data were processed

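Single-cell 3′ libraries of stromal and vascular cells of inguinal fat, 1 per genotype, were processed with Cell Ranger 3.1.0 and STAR 2.6 on mm10, per the submitters' processing notes. The authors deposited filtered UMI counts per gene and barcode (31053 features), which were used as deposited, with no normalization. Of these features 71 shared a symbol with another and were not merged. Groups came from the sample titles and genotypes.

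UMIs of members were summed per library and divided by the library's member total (CPM). Log2 ratios add 10 CPM. Genes with 50 CPM in either library and 20 UMIs over both were compared, and 2-fold was the call. With 1 library per group no test was possible. Intervals are exact Poisson (levels), conditional binomial (ratios) and Clopper-Pearson (shares), at 95%. A count of 0 is read as up to 3 counts. PCR and free RNA are not covered by them. Scrublet in scanpy 1.11.5 scored doublets, at 0.8% per 1000 barcodes, and no barcode was removed for its score in the main values. Thinning used 100 draws. Python 3.11.15, numpy 2.4.6, scipy 1.17.1, pandas 2.3.3 and matplotlib 3.10.9 were used, and the calculations were tested on simulated data.

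The members and the gene lists were chosen with earlier results of these data known. Genes were named if they belong to the rule, were among the 12 highest or lowest of a comparison at 100 CPM or more, lay furthest from 0 in their list, were among the 25 most enriched in members, or had 100 CPM in 1 library and at most 2 UMIs in another. Genes named within a subset or beside these were chosen after their values were seen. Promoters were matched by symbol to a RefSeq table of GRCm38.p6. Alternatives were other thresholds, weights and exclusions. Those on the 2 deepest members, endothelial UMIs, low Malat1 and thinning were chosen after seeing the data. Some genes are not reported here.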

Additional observations from a re-analysis of the deposited data

How the results depend on the processing

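No paired analysis was possible because each genotype has 1 library. Leaving out a replicate was not possible for the same reason. The Pdgfra-Cre share of macrophages was 1.17% with at least 1000 genes per barcode, 0.983% without low-Malat1 members and 1.06% when low-Malat1 barcodes were left out of both counts. Without lymphoid barcodes the share was 2.98% in wild type and 5.88% in Pdgfrb-Cre. The counts of genes past 2-fold, listed as higher and lower in Pdgfra-Cre and then in Pdgfrb-Cre, were 132, 59, 295 and 98 without members that held 3 or more UMIs of other lineages, which leaves 9, 12 and 18 cells. They were 165, 155, 363 and 122 with 50 CPM added and 134, 105, 189 and 83 with a minimum of 200 CPM. With every member weighted equally 412 and 573 genes were lower, with no minimum 1145 were higher in Pdgfrb-Cre, and without the 2 deepest members 180 were higher in Pdgfra-Cre. Directions turned for more named genes than are listed here. Over all settings the Pdgfrb-Cre log2 ratio ran from -1.495 to 2.499 for Timd4 and from -0.87 to 5.04 for H2-Ab1. For Cd74 it ran from -0.61 to 3.06. In Pdgfra-Cre Gpnmb was -0.083 with 1000 genes and -1.89 without low-Malat1 members. Without members holding other lineages' UMIs Apoe was 0.69, Egr1 -0.23, Fabp5 2.81 and Lyz2 1.99 in Pdgfra-Cre, and C1qb 0.18, C1qc 0.027, Fabp4 -1.78, Fabp5 1.68 and Lyz2 1.12 in Pdgfrb-Cre. With equal weights Fabp5 was 1.45, Lyz2 0.21 and the inflammatory median -0.10 in Pdgfra-Cre. Without the 2 deepest members Fabp5 was 1.11 and Lyz2 0.11 in Pdgfra-Cre and Fabp5 0.84 in Pdgfrb-Cre. Without endothelial-positive members Fabp4 was -0.49 in Pdgfrb-Cre. The cause of these moves was not tested beyond the cells left out. Depth limits genes under about 20 UMIs in the 31 members of wild type and of Pdgfra-Cre.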

Other observations

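Transcripts of the mitochondrial genome were lower in both Cre libraries, and no member of that list was past 2-fold higher. Of 12 compared in Pdgfra-Cre 4 were past 2-fold lower, with a median log2 ratio of -0.95, and of 13 in Pdgfrb-Cre 3 were, with a median of -0.69. The median mitochondrial share of a member was 5.83%, 2.79% and 3.49% in wild type, Pdgfra-Cre and Pdgfrb-Cre, and barcodes over 15% had been left out in all 3. Both comparisons share the wild-type members.

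Genes of macrophages of lymph node and spleen were lower by count in Pdgfra-Cre, with 4 of 6 compared past 2-fold lower and 0 higher and a median log2 ratio of -2.57, while in Pdgfrb-Cre 3 of 9 were higher and 4 lower with a median of -0.63. Without the 2 deepest members of each library these medians were -1.27 and 0.90. Growth factor genes were unevenly placed, with 3 of 6 higher and 2 lower in Pdgfra-Cre and 7 of 15 higher and 2 lower in Pdgfrb-Cre. Of genes of telomeres and telomerase only 3 and 4 reached the level at which they were compared, with 1 higher and 1 lower in Pdgfra-Cre and 0 higher and 1 lower in Pdgfrb-Cre.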
